A study of Mus musculus with 8 samples.

Results

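The genes of glycogen metabolism were followed in RNA from mouse eyes: Ppp1r3c, Gyg, Gys1, Gbe1, Pygb, Pygl, Pygm and Ugp2. Every probe set that the platform annotation gives to 1 of these 8 genes was taken, which made 14 of the 22690 probe sets on the array. Ugp2 had 5 probe sets, Ppp1r3c and Gys1 had 2 each, and the other genes had 1 each. The 8 arrays form 4 groups of 2 (arrays I and II): KPAW eyes at 1 month, wild-type eyes at 1 month, KPAW eyes at 5 days and wild-type eyes at 5 days. KPAW is not expanded in the labels, which give no allele or promoter for it. The wild type at 5 days was C57Bl6, and no strain is named for the remaining 3 groups. Nothing says whether arrays I and II of a group came from separate animals, so p-values measure only the spread between these arrays. The genes were chosen with the 1-month difference between KPAW and wild type known: Ppp1r3c and Gyg were chosen by their signals in those 4 arrays. Values that rest on that difference are therefore given as a description, without a test.

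Glycogen is a branched glucose store that many tissues build when glucose is plentiful and break down when energy is short. Ugp2 makes UDP-glucose, the donor of the sugar; Gyg, glycogenin, primes a new particle; Gys1, the glycogen synthase of muscle and most other tissues, lengthens the chains; and Gbe1 adds the branches. Glycogen phosphorylase releases glucose units again and has brain (Pygb), liver (Pygl) and muscle (Pygm) forms. Ppp1r3c, also called protein targeting to glycogen, brings protein phosphatase 1 to the particle, where it activates the synthase and inactivates phosphorylase. In the eye, corneal epithelium and the Mueller glia of the retina are known to hold glycogen.

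Signals are linear intensities scaled to a common trimmed mean. Log2 differences were computed on log2(scaled signal + 0.0211), which understates ratios of dim probe sets. Of the 14 probe sets, 12 passed the filter on low values (a mean signal above 0.0406). Both Gys1 probe sets fell below it. The labelled tissue was borne out by its markers: the lens crystallin Cryaa read between 6.31 and 9.88 in all 8 arrays, and at 1 month the pigment epithelium enzyme Rpe65 read 1.22 and 1.58 in KPAW and 1.79 and 1.66 in wild type. At 5 days Rpe65 was lower, 0.117 and 0.0764 in KPAW and 0.121 and 0.114 in wild type. Several arrays stood apart in marker sums. In KPAW I at 1 month the summed signal of 10 rod photoreceptor genes was 0.989. In KPAW II it was 34.0, and in the wild-type arrays of that age 30.5 and 37.7. Signals shown from KPAW at 1 month are therefore given for each array. Log2 differences that use that group average both of its arrays. At 5 days the summed signal of 9 epidermis markers was 7.66 for array I and 0.514 for array II of KPAW, against 4.28 for array I and 0.656 for array II of wild type. Markers of adipocytes and glands, 5 genes, summed to 0.710 and 0.652 in KPAW and to 1.67 and 0.272 in wild type at that age. Transcripts linked to sex also differed: Xist read between 2.95 and 3.64 in KPAW II and both wild-type arrays at 5 days, and between 0.0523 and 0.0861 in the other 5 arrays, where the Y-linked Eif2s3y was detected. Both wild-type arrays at 5 days thus had Xist, and both at 1 month had Eif2s3y. In every wild-type age difference below, age and sex therefore cannot be told apart. In KPAW, array I at 5 days had Eif2s3y and array II had Xist, while both arrays at 1 month had Eif2s3y. The KPAW age differences and the comparison of KPAW with wild type at 5 days were thus also unbalanced in sex. The part of sex in them was not tested.

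**Figure D1:**
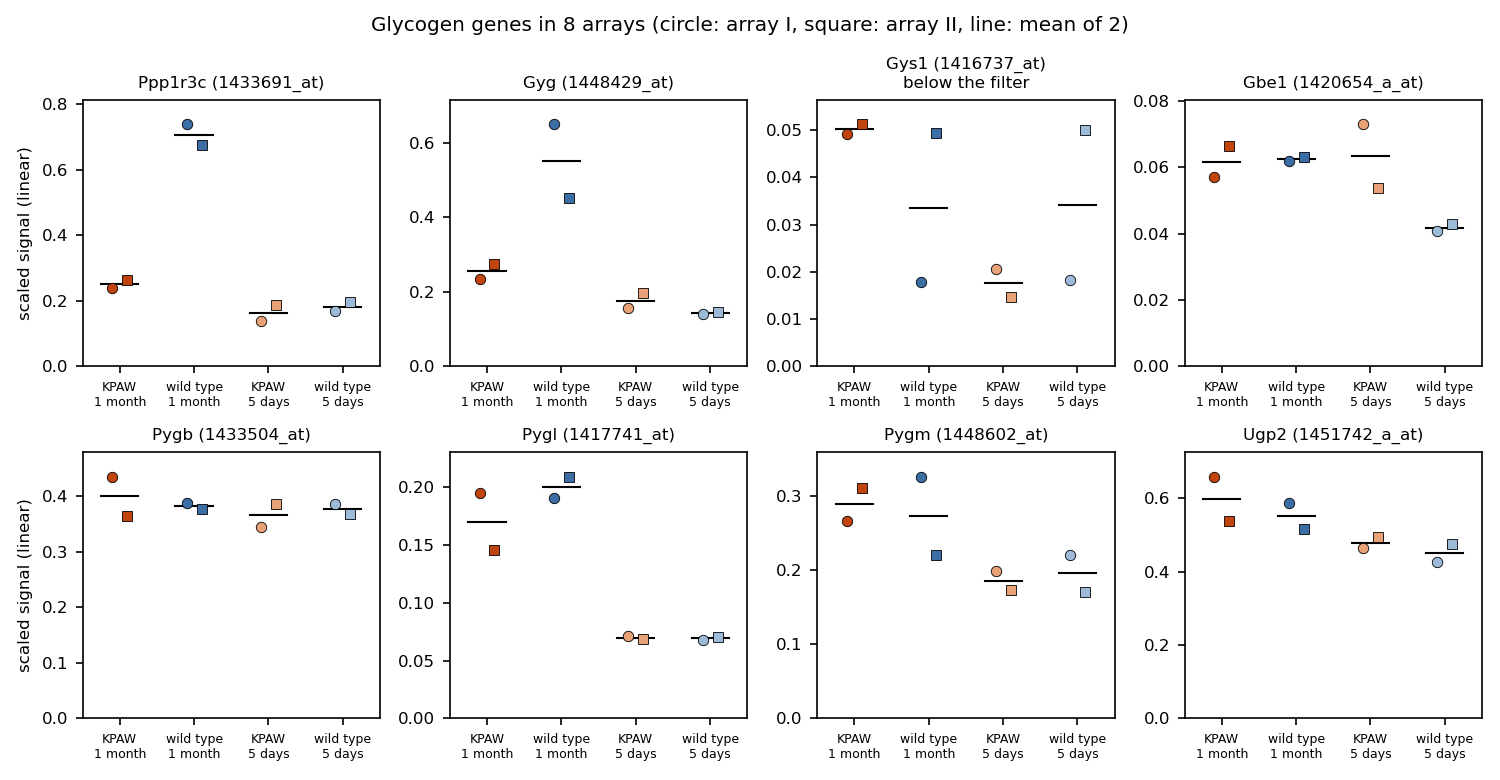
Scaled signal (linear, starting at 0) of the probe set with the highest mean signal for each of the 8 genes, in KPAW and wild-type eyes at 1 month and at 5 days; circles are array I, squares array II and lines the mean of 2. Ppp1r3c and Gyg are high in both wild-type arrays at 1 month alone, Pygl is high in all 4 arrays at 1 month, and Pygb is nearly level.

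Ppp1r3c, the targeting subunit, had the largest differences between KPAW and wild type at 1 month among the 12 probe sets kept. Its first probe set (1433691_at) read 0.239 and 0.263 in KPAW eyes at 1 month, against 0.739 and 0.676 in wild-type eyes of that age. At 5 days it read 0.139 and 0.188 in KPAW eyes and 0.168 and 0.195 in wild-type eyes. The wild-type arrays at 1 month thus stood apart from the other 6, which lay between 0.139 and 0.263. At 1 month the means were 0.251 ± 0.0165 in KPAW and 0.707 ± 0.0445 in wild type (SD, n = 2 each), a log2 difference of -1.42 (SE 0.17). The second probe set (1425631_at) gave the same picture from separate probes. It read 0.0867 and 0.0712 in KPAW eyes at 1 month, against 0.269 and 0.251 in wild-type eyes. At 5 days its values were 0.0617 and 0.0637 in KPAW and 0.0630 and 0.0646 in wild type. The log2 difference at 1 month was -1.50 (SE 0.15), and no array of either group crossed into the range of the other in either probe set.

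Gyg (1448429_at), the glycogenin primer, followed a like course. Its signal was 0.234 and 0.276 in KPAW eyes at 1 month, against 0.649 and 0.451 in wild-type eyes. At 5 days it was 0.155 and 0.197 in KPAW eyes and 0.141 and 0.145 in wild-type eyes. The means at 1 month were 0.255 ± 0.0293 in KPAW and 0.550 ± 0.140 in wild type (SD, n = 2 each), a log2 difference of -1.03 (SE 0.20). The wild-type arrays disagreed more on Gyg than on Ppp1r3c. Without wild type I at 1 month the Gyg difference was -0.78, and without wild type II it was -1.28. For Ppp1r3c, leaving out any 1 of the 8 arrays kept the difference between -1.48 and -1.36 in the first probe set and between -1.61 and -1.38 in the second.

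The remaining 9 probe sets kept differed by less than 0.5 on the log2 scale at 1 month. Pygb differed by 0.06 (SE 0.14), Pygl by -0.22 (SE 0.17), Pygm by 0.10 (SE 0.21) and Gbe1 by -0.01 (SE 0.19) on the log2 scale. The 5 Ugp2 probe sets ran from -0.19 to 0.49, the highest (1426460_a_at) with both KPAW arrays above both wild-type arrays. Pygl, for example, read 0.195 and 0.145 in KPAW and 0.190 and 0.209 in wild type, so the groups overlapped. Of the 12 probe sets, 3 (both of Ppp1r3c and that of Gyg) lay at or below a log2 difference of -1, as did 0.916% of the 15838 probe sets of the array. KPAW arrays lay below both wild-type arrays in those 3 probe sets and above both in 2 of Ugp2 (all probe sets: 19.6% below and 17% above). Nothing is read from these shares, since Ppp1r3c and Gyg were noticed in this contrast.

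**Figure D2:**
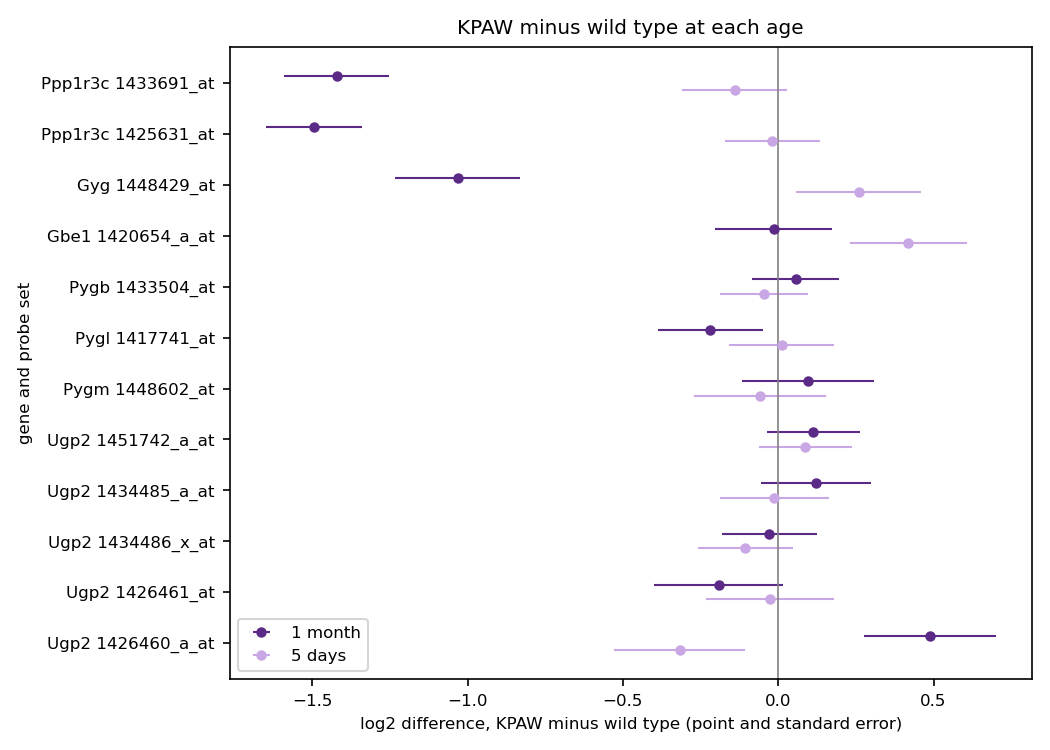
Log2 difference of scaled signal, KPAW minus wild type, for the 12 probe sets kept, at 1 month (dark) and at 5 days (light); points are the model's estimates and bars their standard errors, from 2 arrays a group. At 1 month Ppp1r3c and Gyg lie between -1.50 and -1.03, and the other probe sets between -0.22 and 0.49.

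Promoter stretches of Ppp1r3c and Gyg are shown because the genes had like profiles over the 8 arrays, which choosing both at 1 month favoured. Each is 300 bases from RefSeq (GRCm38.p6), 5′ to 3′ on the strand of the gene, from 250 bases before to 50 after the annotated start. Ppp1r3c is at chr19:36736555-36736854 and Gyg at chr3:20155067-20155366, both on the minus strand. Capitals mark CACGTG, which is a form of the E-box and is read the same on both strands. Other forms of the E-box were not marked.
Ppp1r3c: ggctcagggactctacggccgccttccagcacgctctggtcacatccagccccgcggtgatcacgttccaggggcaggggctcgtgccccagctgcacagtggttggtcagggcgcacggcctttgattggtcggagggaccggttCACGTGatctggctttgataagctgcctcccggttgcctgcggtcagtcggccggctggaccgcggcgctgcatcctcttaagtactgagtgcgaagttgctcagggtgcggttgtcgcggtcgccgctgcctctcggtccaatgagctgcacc
Gyg: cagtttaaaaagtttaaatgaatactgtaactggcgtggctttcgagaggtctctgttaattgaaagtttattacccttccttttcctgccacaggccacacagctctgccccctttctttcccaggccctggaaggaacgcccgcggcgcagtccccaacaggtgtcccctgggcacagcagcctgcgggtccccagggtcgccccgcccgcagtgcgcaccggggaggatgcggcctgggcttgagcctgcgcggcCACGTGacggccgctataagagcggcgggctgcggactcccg
CACGTG begins at base 147 of the Ppp1r3c stretch and at base 259 of the Gyg stretch, counted from 1 at the 5′ end. The match thus lies before the annotated start in Ppp1r3c and after it in Gyg. All 8 genes had a promoter in the table (9 in all, 2 for Ugp2), and Ppp1r3c and Gyg were the 2 genes with CACGTG. It occurs in 7.15% of 32851 mouse promoters of this length. The shorter ACGTG, contained in CACGTG and searched on both strands, was found for 6 of the 8 genes, for Ugp2 in 1 of its 2 promoters. It occurs in 19.6% of all promoters, a share per promoter and not per gene. The letters were chosen after the sequences had been read, and a match is a description of the sequence.

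Genes with the profile most like that of a member were found by Pearson correlation of log2 values over the 8 arrays, among 9491 other genes. The arrays share the age and KPAW structure, so many genes correlate. Ppp1r3c and Gyg were both chosen by their 1-month signals in these arrays, so their likeness to each other partly restates that choice. For Ppp1r3c the nearest were Enpp5 (r = 0.985), Zbtb1 (0.981), the thiamine transporter Slc19a2 (0.977), Rbl2 (0.965) and Gyg (0.962). Enpp5 read 0.342 and 0.451 in KPAW eyes at 1 month, against 0.798 and 0.762 in wild-type eyes. The size of a difference does not enter r. Zbtb1 read 0.0820 and 0.0796 in KPAW eyes at 1 month, against 0.0966 and 0.0967 in wild-type eyes. The 2 Ppp1r3c probe sets correlated with each other at 0.977. For Gyg the nearest were Rad51d (0.992), Trak1 (0.982), Rgs10 (0.976), the phosphate transporter Slc34a2 (0.974) and the potassium channel subunit Kcne2 (0.965). For Pygm they were Xpc (0.9754), Mbnl1 (0.967), Aldh9a1 (0.954), Kcnip3 (0.952) and Scn8a (0.949). In the Pygm profile wild type II at 1 month sat low. Pygm read 0.219 there, against 0.326 in wild type I and 0.266 and 0.311 in KPAW.

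In whole-eye RNA, fewer cells of a type and less RNA per cell cannot be told apart. Marker lists were also compared at 1 month. Their counts are to be read against all probe sets, of which 17% lay higher and 19.6% lower in KPAW without overlap. Of 8 corneal epithelium markers, 6 lay lower in both KPAW arrays than in both wild-type arrays, 1 lay higher and 1 overlapped. The higher one was Krt14, a keratin of basal epithelial cells, at 4.05 and 3.14 in KPAW against 0.590 and 0.597 in wild type. The summed signal of all 8 was 16.5 and 22.3 in KPAW and 26.6 and 28.5 in wild type. Tkt, a transketolase abundant in cornea, read 2.90 and 2.92 in KPAW against 4.13 and 4.89 in wild type. Krt12, the keratin of differentiated cornea, gave 5.13 for array II but 0.391 for array I of KPAW, against 6.76 and 7.82 for wild type. All 8 markers kept of epidermis and keratinizing epithelium lay higher in KPAW, with sums of 23.3 and 11.9 against 3.04 and 3.36 in wild type for the 9 on the array. Of 12 markers of Mueller glia and astrocytes, 3 lay higher and 1 lower, and their sums overlapped (17.6 and 15.2 in KPAW, 14.1 and 15.3 in wild type). Of the 19 skeletal muscle markers kept, 2 lay higher and 4 lower in KPAW without overlap. The summed signals of all 20 on the array overlapped, at 10.1 and 6.49 in KPAW and 8.76 and 6.44 in wild type. In these lists 1 marker, involucrin (Ivl) of the epidermis, was at the lowest listed value in all 8 arrays. The part of these cell types in the Ppp1r3c and Gyg differences was not tested.

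**Figure D3:**
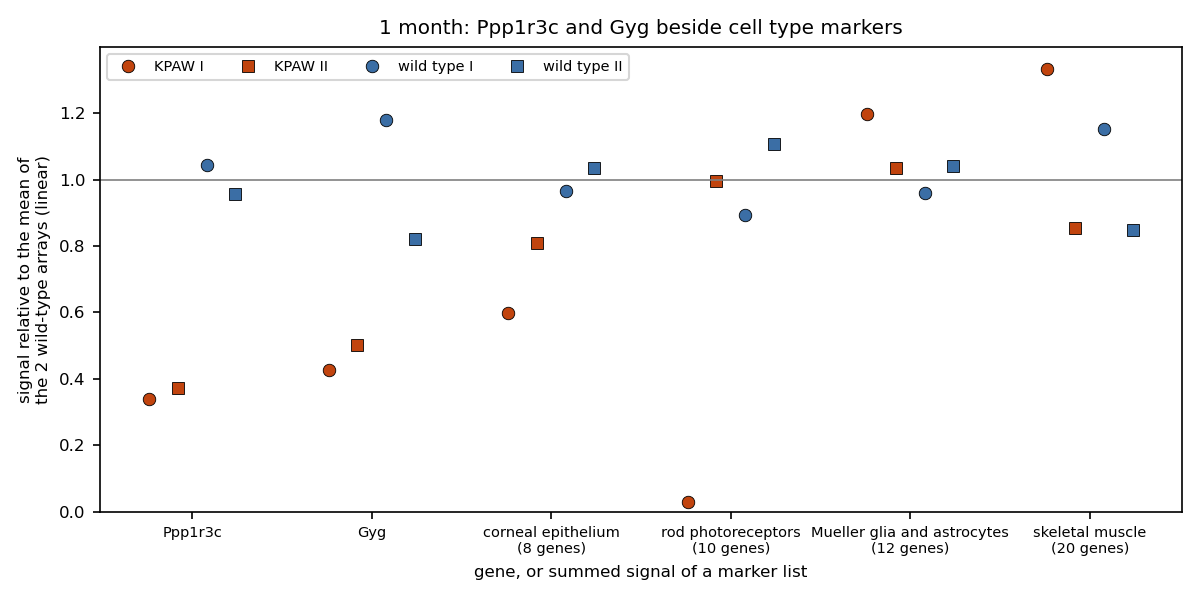
Signal at 1 month of Ppp1r3c, Gyg and the summed markers of 4 cell types in each array, divided by the mean of both wild-type arrays (grey line at 1); circles are array I and squares array II. Ppp1r3c lies at 0.338 and 0.371 and Gyg at 0.426 and 0.501 in KPAW, while rod markers lie at 0.029 for array I and 0.996 for array II of KPAW.

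At 5 days the same genes were compared between KPAW and wild type, a contrast on which they were not chosen. None of the 12 probe sets passed limma at a Benjamini-Hochberg adjusted p under 0.05 (lowest adjusted p = 1.00), and none had an unadjusted p under 0.05. Over all probe sets 0% passed, and 2.39% had an unadjusted p under 0.05. The first Ppp1r3c probe set differed by -0.14 (95% interval -0.53 to 0.25) and the second by -0.02 (-0.37 to 0.34). Gyg differed by 0.26 (-0.20 to 0.72), and both its KPAW arrays lay just above both wild-type arrays. Gbe1, the branching enzyme, had the largest value, 0.42 (-0.02 to 0.85), with 0.0730 and 0.0539 in KPAW and 0.0407 and 0.0428 in wild type. Pygb (-0.05, interval -0.37 to 0.28), Pygl (0.01, -0.38 to 0.40) and Pygm (-0.06, -0.55 to 0.43) had overlapping groups. With 2 arrays a group these intervals reach 0.85 on the log2 scale. Groups did not overlap in 3 of the 12 probe sets, 2 higher and 1 lower in KPAW (all probe sets: 16.8% higher and 16.6% lower). Summed corneal markers at 5 days were 10.3 and 4.26 in KPAW, against 4.75 and 4.68 in wild type. KPAW I was high in the keratins Krt5 (2.995 there and 0.489 in KPAW II) and Krt14 (3.69 and 0.169), while Krt12 was alike in both, 0.721 and 0.739. The epidermis markers given above were high in that array and in wild type I. The part of these markers in the 5-day and age values was not tested.

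With age, Ppp1r3c and Gyg differed by less in KPAW than in wild-type eyes, which restates the 1-month difference because the 1-month arrays are shared. In KPAW eyes the first Ppp1r3c probe set differed between 1 month and 5 days by 0.57 (SE 0.17), the second by 0.25 (SE 0.15) and Gyg by 0.49 (SE 0.20). In wild-type eyes the differences were 1.85 (SE 0.17), 1.73 (SE 0.15) and 1.78 (SE 0.20). All 3 probe sets lay higher at 1 month than at 5 days without overlap, in KPAW (25.3% of all probe sets) and in wild type (32.5%). By level, wild type at 1 month was highest and KPAW at 1 month second for both genes, each apart from the next. The 2 groups of 5 days overlapped for Ppp1r3c and were narrowly apart for Gyg.

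Among the genes tested with age, which leaves out Ppp1r3c and Gyg, Pygl, the liver form of phosphorylase, rose in both kinds of eye. In KPAW eyes it read 0.195 and 0.145 at 1 month and 0.0715 and 0.0683 at 5 days. The log2 difference was 1.06 (SE 0.17, limma adjusted p = 0.0072). In wild-type eyes it read 0.190 and 0.209 at 1 month and 0.0681 and 0.0702 at 5 days, a difference of 1.29 (SE 0.17, limma adjusted p = 0.0027). All 4 arrays of 1 month lay above all 4 of 5 days. The call in KPAW was lost when the KPAW arrays were fitted alone (1.06, limma adjusted p = 0.0517). With any 1 of the 8 arrays omitted, the differences were 0.87 to 1.25 in KPAW (limma adjusted p up to 0.0480) and 1.23 to 1.35 in wild type (limma adjusted p up to 0.0283). Where the omitted array belonged to the contrast, the lone array left was assumed to vary like the other groups. The change in KPAW minus that in wild type was -0.23 (SE 0.24), which was not tested. Pygl was 0.0715 in KPAW I at 5 days, the one 5-day array with Eif2s3y and little Xist, and between 0.0681 and 0.0702 in the other 3. In wild type these sex-linked transcripts changed together with age, and the part of sex in the Pygl change was not tested. Several cell types also gained signal with age. Of 8 corneal markers 4 rose in KPAW and 6 in wild type, and of 12 glial markers 5 rose and 1 fell in KPAW, and 7 rose and 1 fell in wild type. Over all probe sets 6.76% were called higher and 7.51% lower in KPAW, and 8.73% and 9.33% in wild type. The part of these cell types in the Pygl change was not tested.

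Of the 9 probe sets kept for the genes other than Ppp1r3c and Gyg, Pygl was the 1 that passed with age in KPAW, where 6.76% of all probe sets were called higher and 7.51% lower. It was also the 1 that passed in wild type, where 8.73% were called higher and 9.33% lower. The median log2 difference of the 9 was 0.26 in KPAW and 0.25 in wild type, against -0.04 and -0.004 over all probe sets. Ugp2 supplied 5 of the 9, and each median was the value of a Ugp2 probe set (1426460_a_at in KPAW, 1426461_at in wild type). The medians therefore do not describe the genes as a set. Pygm, the muscle form, differed by 0.58 (SE 0.21, limma adjusted p = 0.107) in KPAW and 0.43 (SE 0.21, limma adjusted p = 0.201) in wild type. In the values as deposited, Pygm passed in wild type (0.89, limma adjusted p = 0.0468), on a scale where the median of all probe sets was shifted by 0.44. Pygb, the brain form, read 0.435 and 0.364 in KPAW and 0.388 and 0.376 in wild type at 1 month. At 5 days it read 0.345 and 0.385 in KPAW and 0.386 and 0.368 in wild type. Its differences with age were 0.12 (SE 0.14) in KPAW and 0.02 (SE 0.14) in wild type, and neither passed. Gbe1 differed by -0.02 (SE 0.19) in KPAW and 0.41 (SE 0.19, limma adjusted p = 0.169) in wild type.

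**Figure D4:**
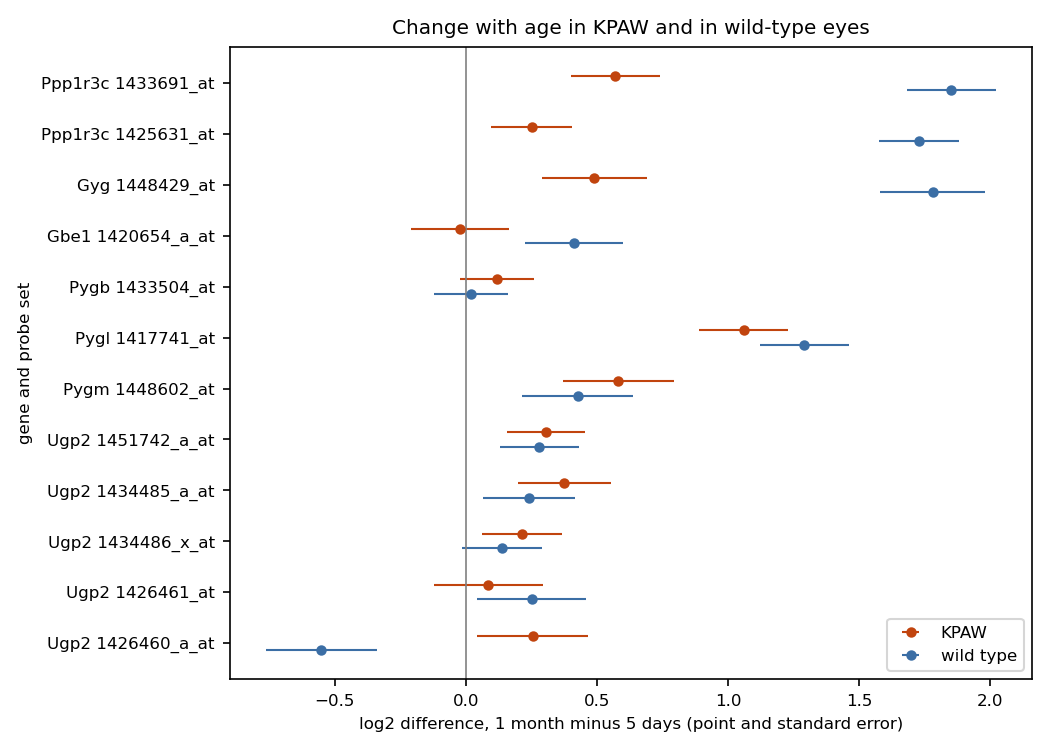
Log2 difference of scaled signal, 1 month minus 5 days, for the 12 probe sets kept, in KPAW (orange) and wild-type eyes (blue); points are the model's estimates and bars their standard errors, from 2 arrays a group. Pygl lies at 1.06 in KPAW and 1.29 in wild type, while Ppp1r3c and Gyg lie between 0.25 and 0.57 in KPAW and between 1.73 and 1.85 in wild type.

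Probe sets of the same gene were then compared. The brightest Ugp2 probe set (1451742_a_at), for the UDP-glucose enzyme, read 0.659 and 0.539 in KPAW and 0.585 and 0.515 in wild type at 1 month. At 5 days it read 0.463 and 0.493 in KPAW and 0.425 and 0.474 in wild type. Its differences with age were 0.31 (SE 0.15, limma adjusted p = 0.212) in KPAW and 0.28 (SE 0.15, limma adjusted p = 0.233) in wild type. Over its 5 probe sets the age difference ran from 0.09 to 0.38 in KPAW and from -0.55 to 0.28 in wild type, and none passed. The probe set at -0.55 (1426460_a_at, SE 0.21, limma adjusted p = 0.109) departed from the rest. It read 0.130 and 0.116 in KPAW eyes at 1 month, against 0.0977 and 0.0672 in wild-type eyes. At 5 days it read 0.0822 and 0.119 in KPAW and 0.133 and 0.125 in wild type. Both KPAW arrays thus lay above both wild-type arrays at 1 month and below them at 5 days. In 1434485_a_at the differences had the same signs (0.12 at 1 month and -0.01 at 5 days), but its groups overlapped at 5 days, and in the other 3 they overlapped at both ages.

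Gys1, the synthase itself, gave little usable signal. Its probe set 1416737_at read 0.0492 and 0.0512 in KPAW eyes at 1 month, against 0.0178 and 0.0494 in wild-type eyes. At 5 days it read 0.0207 and 0.0147 in KPAW and 0.0183 and 0.0501 in wild type. At each age the 2 wild-type arrays were further apart than the means of KPAW and wild type. Both KPAW arrays of 1 month lay above both of 5 days, at signals below the filter. The other, 1450196_s_at, was at the lowest listed value in 5 of the 8 arrays. Neither was tested.

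**Figure D5:**
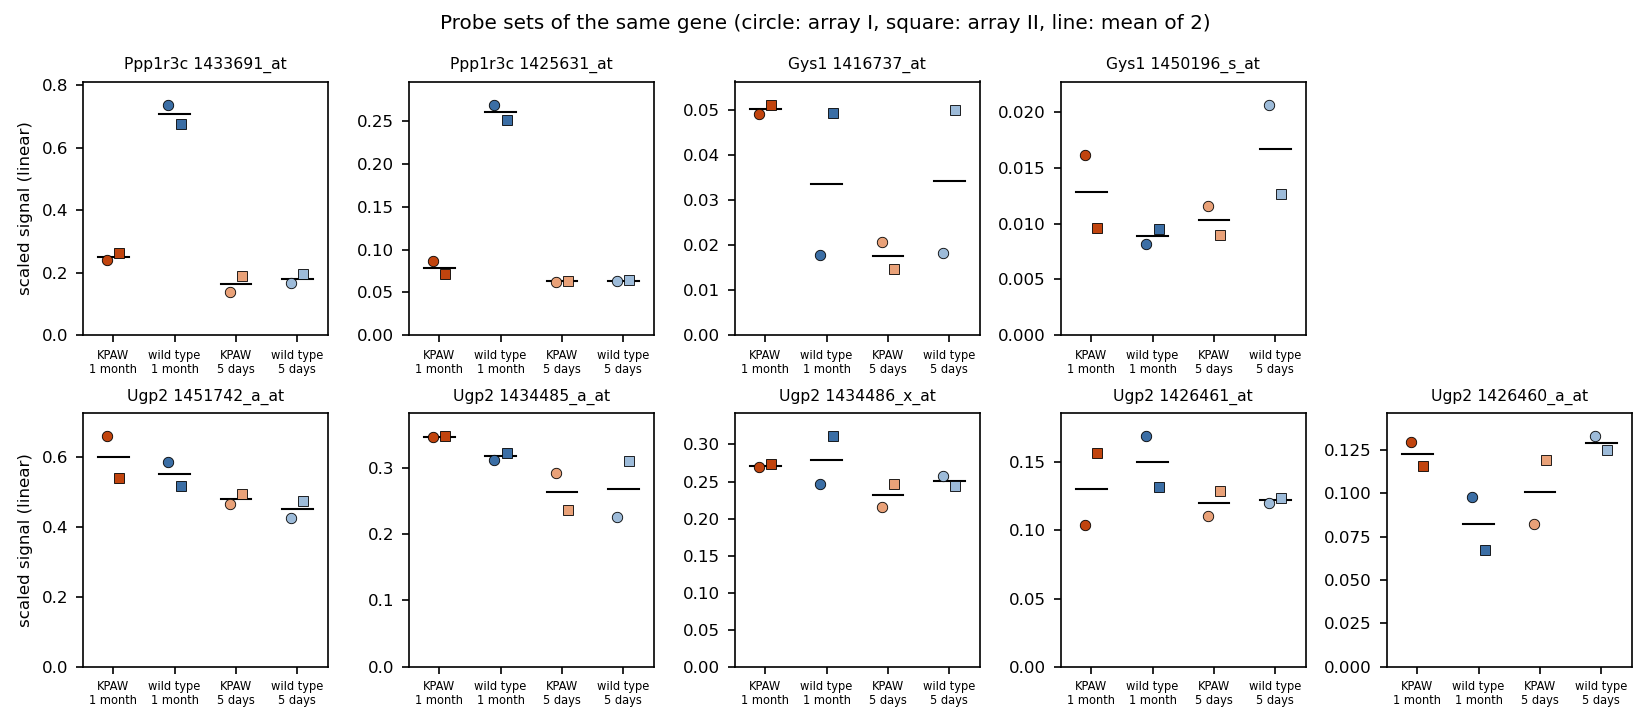
Scaled signal (linear, starting at 0) of every probe set of the 3 genes that had more than 1, in KPAW and wild-type eyes at 1 month and at 5 days; circles are array I, squares array II and lines the mean of 2. The 2 Ppp1r3c probe sets share 1 profile, the 5 Ugp2 probe sets do not all follow each other, and those of Gys1 scatter at low signal.

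Among 46 other genes listed for glycogen handling, 32 had a probe set of their own and 27 were kept. The list took in hexokinases, phosphorylase kinase, lysosomal breakdown, phosphatase 1 and its inhibitors, and the AMP-activated kinase. None passed at 5 days between KPAW and wild type. With age, 3 of the 27 rose and 0 fell in KPAW, and 3 rose and 1 fell in wild type, to be read against the 6.76% and 7.51% called higher and lower in KPAW and the 8.73% and 9.33% in wild type. Their median log2 difference was 0.10 in KPAW and 0.03 in wild type, against -0.04 and -0.004 over all probe sets. Hk1, a hexokinase that makes glucose 6-phosphate, rose by 1.05 in KPAW (SE 0.26, limma adjusted p = 0.033) and by 1.34 in wild type (SE 0.26, limma adjusted p = 0.0121). Ppp1r2, an inhibitor of protein phosphatase 1, rose by 0.76 in KPAW (SE 0.16, limma adjusted p = 0.0187) and by 0.79 in wild type (SE 0.16, limma adjusted p = 0.0138). Gaa, the lysosomal glucosidase that digests glycogen, rose by 0.71 in KPAW (SE 0.18, limma adjusted p = 0.0349). Hk2, the hexokinase of muscle and photoreceptors, rose by 1.99 in wild type (SE 0.42, limma adjusted p = 0.0164). In the other kind of eye neither passed, though the sign was the same. Gaa differed by 0.27 in wild type (SE 0.18, limma adjusted p = 0.333) and Hk2 by 1.41 in KPAW (SE 0.42, limma adjusted p = 0.0605). Akt1, a kinase of insulin signalling, fell by 0.48 in wild type (SE 0.12, limma adjusted p = 0.032), but stood at 0.011 in the values as deposited, where the median of all probe sets was 0.44. In KPAW Akt1 differed by -0.26 and did not pass (SE 0.12, limma adjusted p = 0.194). The 4 wild-type calls were all lost without any 1 of the 4 wild-type arrays, where the remaining array of that age stood alone. In KPAW, Hk1 kept its call only without KPAW I at 1 month and Gaa only without KPAW II at 1 month; leaving out any other of the 8 arrays ended them (limma adjusted p up to 0.116 for Hk1 and 0.130 for Gaa). Ppp1r2 lost its call in KPAW without KPAW II at 5 days (limma adjusted p = 0.112) and without KPAW I at 1 month (limma adjusted p = 0.0561). Among the arrays of 1 month, Hk1 and Hk2 were lowest in KPAW I, the array with the low rod marker sum. Hk1 gave 0.871 for array I and 1.60 for array II of KPAW, against 1.74 and 1.70 for wild type. Hk2 gave 0.291 for array I and 0.921 for array II of KPAW, against 0.906 and 0.973 for wild type. The part of rods in these values was not tested. Of the other glycogen-targeting subunits of the phosphatase, Ppp1r3f was kept and Ppp1r3a lay below the filter. Ppp1r3f read 0.103 and 0.0538 in KPAW at 1 month against 0.128 and 0.148 in wild type, and 0.0516 and 0.0399 in KPAW at 5 days against 0.0910 and 0.0897 in wild type. Its difference at 5 days was -0.74 (SE 0.25, limma adjusted p = 1.00), and it did not pass with age in either kind of eye.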

How the data were processed

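Values were the authors' deposited signal intensities, 1 per probe set and array, on a linear scale. Software, background correction and scaling are not given in the sources used here. Per the values, the median over control probe sets was 1, and the lowest value was 0.01, listed for 10.0% to 14.9% of an array's probe sets. The unit is inferred from these values. The number of arrays limits the precision.

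After 64 control features of 22690 were removed, 20380 of the rest carried 1 gene symbol, 691 several and 1555 none. Arrays were scaled to the median of their trimmed means (2% off each end, 0.142 to 0.253), and 0.0211, the 20th percentile, was added before log2. The 15838 probe sets with a mean above the 30th percentile were fitted in limma (3.58.1, R 4.3.3), with 4 group means, 4 residual degrees of freedom, a variance trend and Benjamini-Hochberg adjustment over all of them. A gene other than the 8 was represented by its brightest probe set. The pathway and marker genes named follow a rule: up to 4 per pathway list that passed with age, and the 5 nearest profiles of Ppp1r3c, Gyg and Pygm. Ppp1r3f, Ppp1r3a and the single marker genes were chosen after their values were seen. The model was tested on simulated data. Members and lists were chosen with earlier results of these data known. Alternatives were other scalings, pseudocounts and filters, other variance models, the groups alone, a replicate block, array weights, a common floor and leaving out each array. Python 3.11.15, pandas 2.3.3 and matplotlib 3.10.9 were used for sequences and plots.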

Additional observations from a re-analysis of the deposited data

Results flagged for a closer look

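In Gyg the KPAW arrays were higher than either wild-type array at 5 days and lower than either at 1 month, a change of the KPAW difference of -1.29 on the log2 scale between the ages. In the Ugp2 probe set 1426460_a_at both KPAW arrays lay below wild type at 5 days and above it at 1 month, a change of 0.81. Neither change was tested. Gyg was noticed in the 1-month contrast, and the other 4 Ugp2 probe sets gave changes between -0.16 and 0.13.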

How the results depend on the processing

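With 2 arrays a group, small differences cannot be seen, and dim probe sets such as those of Gys1 carry no measure. The count of member probe sets that passed was 0 at 5 days in every alternative run. With age, in wild type 2 passed as deposited (Pygl and Pygm) in place of 1, and in KPAW 0 passed in the KPAW groups alone in place of 1; leaving out each array gave 1 in both. The Ppp1r3c difference at 1 month, -1.42, was -1.70 as deposited, and its change between ages, -1.28, was -1.74 as deposited and -1.47 to -1.09 with an array omitted. As deposited, the median of all probe sets was -0.26 at 1 month, 0.18 at 5 days and 0.44 for age in wild type, and relative to it Ppp1r3c stood at -1.43 and Gyg at -1.04 at 1 month. Values near 0 that had not passed changed sign in places without passing. As deposited these were Gbe1 for age in KPAW (0.0044), and at 5 days Pygb (0.14), Pygm (0.12) and Ppp1r3c (0.042). Median scaling turned Pygb for age in wild type (-0.068) and Pygl at 5 days (-0.025), and quantile normalization turned Pygl at 5 days (-0.030). When an array was left out, Gbe1 for age in KPAW ran from -0.19 to 0.14, and Pygb from -0.0023 to 0.24 in KPAW and from -0.014 to 0.051 in wild type. At 5 days Pygb ran from -0.12 to 0.029, Pygm from -0.23 to 0.11, Ppp1r3c from -0.33 to 0.052 and Pygl from -0.014 to 0.037. The one called value that changed sign was Akt1 (0.011 as deposited). The cause of these shifts was not tested. Over all probe sets, 2860 calls for age in wild type became 848 to 3690 when an array was left out, and 2259 in KPAW became 733 to 2173, with 604 in the KPAW groups alone. At 5 days 27 passed without KPAW II, in place of 0. At 1 month 4 passed, with 1 under array weights, 99 as deposited and 0 to 562 with single arrays omitted (562 without KPAW II at 1 month). Of the 27 other pathway genes, 4 were called in wild type; as deposited 6 were called, all higher and without Akt1, and 0 were called with any 1 wild-type array omitted. In KPAW 3 were called, against 2 as deposited (Hk1 still among them, Gaa and Ppp1r2 not), 2 with array weights (Hk1 and Ppp1r2), 0 in the KPAW groups alone, and 0 to 4 with single arrays omitted. The numerals I and II were not shown to pair arrays: their differences correlated between groups at -0.017 to 0.31. With a replicate block Pygl alone of the members tested passed, 1 in KPAW and 1 in wild type, as without it, and Ppp1r3c at 1 month was again -1.42.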
